A study of Homo sapiens with 12 samples.

Results

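The difference of the Xrn1 effects with K294A is an interaction: the Xrn1 effect in induced cells (Xrn1 minus untreated) minus the Xrn1 effect in uninduced cells. It uses all 12 of the 12 samples of the series and was computed for each of 16883 genes. All samples were cytoplasmic RNA of U2OS, a human osteosarcoma line, stably carrying K294A under doxycycline control and depleted of ribosomal RNA. The 4 groups of 3 exon arrays were induced cells (doxycycline at 1 ug/ml for 24 h) with Xrn1-treated RNA, induced cells with untreated RNA, uninduced cells with Xrn1-treated RNA and uninduced cells with untreated RNA. Xrn1 was applied in vitro, after extraction. Every group carries the transgene, so the uninduced cells are the same line without doxycycline, and no line without K294A was analysed here. Whether the replicates came from separate cultures, and whether the line is 1 clone, is not given in the sources used here, so the p-values measure the spread between these samples, which may be technical.

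Most messenger RNAs carry a methylated guanosine cap at the 5′ end, added in the nucleus by the capping enzyme, the product of RNGTT. A cytoplasmic pool of this enzyme can restore a cap on RNAs that have lost it. K294A replaces the lysine that carries the guanosine during the reaction, and a cytoplasmic form with this change is known to block recapping. Xrn1 is a 5′ to 3′ exonuclease that takes RNA whose 5′ end bears a single phosphate and spares capped RNA. The comparison asks whether RNAs are more open to Xrn1 where K294A is expressed. A gene lowered more by Xrn1 in induced than in uninduced cells has a negative difference, and a gene lowered less has a positive one. All levels and differences are on the log2 scale, and 3 arrays in each group limit the precision.

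The gene values were set against the label of the cells. Of 10 fixed markers of mesenchymal and osteoblast lines, COL1A1 averaged 8.42, SPARC 7.56, ITGB1 6.85 and VIM 6.72 over the 12 arrays, while RUNX2 stood at 3.46 and CDH11 at 2.99. The median gene of an array stood between 3.08 and 3.82. Of 21 markers of other cell types 17 were measured, at 2.44 (the globin gene HBB) to 4.16 (the T cell gene CD3E and the muscle gene ACTA1). With CD3E and ACTA1, KRT5 (3.82), PECAM1 (3.71), DES (3.70) and KRT14 (3.59) also stood above RUNX2. None of these 17 markers passed the test of the difference as deposited, where 20.6% of all genes passed as higher and 1.23% as lower. Of the 10 mesenchymal and osteoblast markers, 3 passed there as higher.

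Part of the way along the deposited table, 6 of the 12 arrays changed level abruptly, and every comparison of groups rests on these arrays. The change common to them was placed after 650745 of the 1411399 rows, on chromosome 8. In 4 of the 6 arrays the array's own change lay within 6 rows of it, and in induced untreated replicate 1 and uninduced untreated replicate 1 it was placed 3069 and 3642 rows away. Rows before it hold chromosomes 1 to 7 and part of 8, called the first side here, and rows after it hold the rest of 8, 9 to 22, X and Y, called the second side. A block of rows near the end of the table returned to the state of the first side. In induced untreated replicate 2 the median probe set stood at 2.66 on the first side and 1.45 on the second. Uninduced Xrn1 replicate 2 had medians of 2.83 and 1.50, and uninduced untreated replicate 2 ran the other way, with 1.55 and 2.63. Induced untreated replicate 1, uninduced Xrn1 replicate 3 and uninduced untreated replicate 1 also stepped, by 0.73, 0.67 and 0.43 between the 500 probe sets before and the 500 after the change. The steps of the other 6 arrays, among them all 3 induced Xrn1 arrays, were between -0.05 and 0.14. The cause of the step was not tested.

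**Figure D1:**
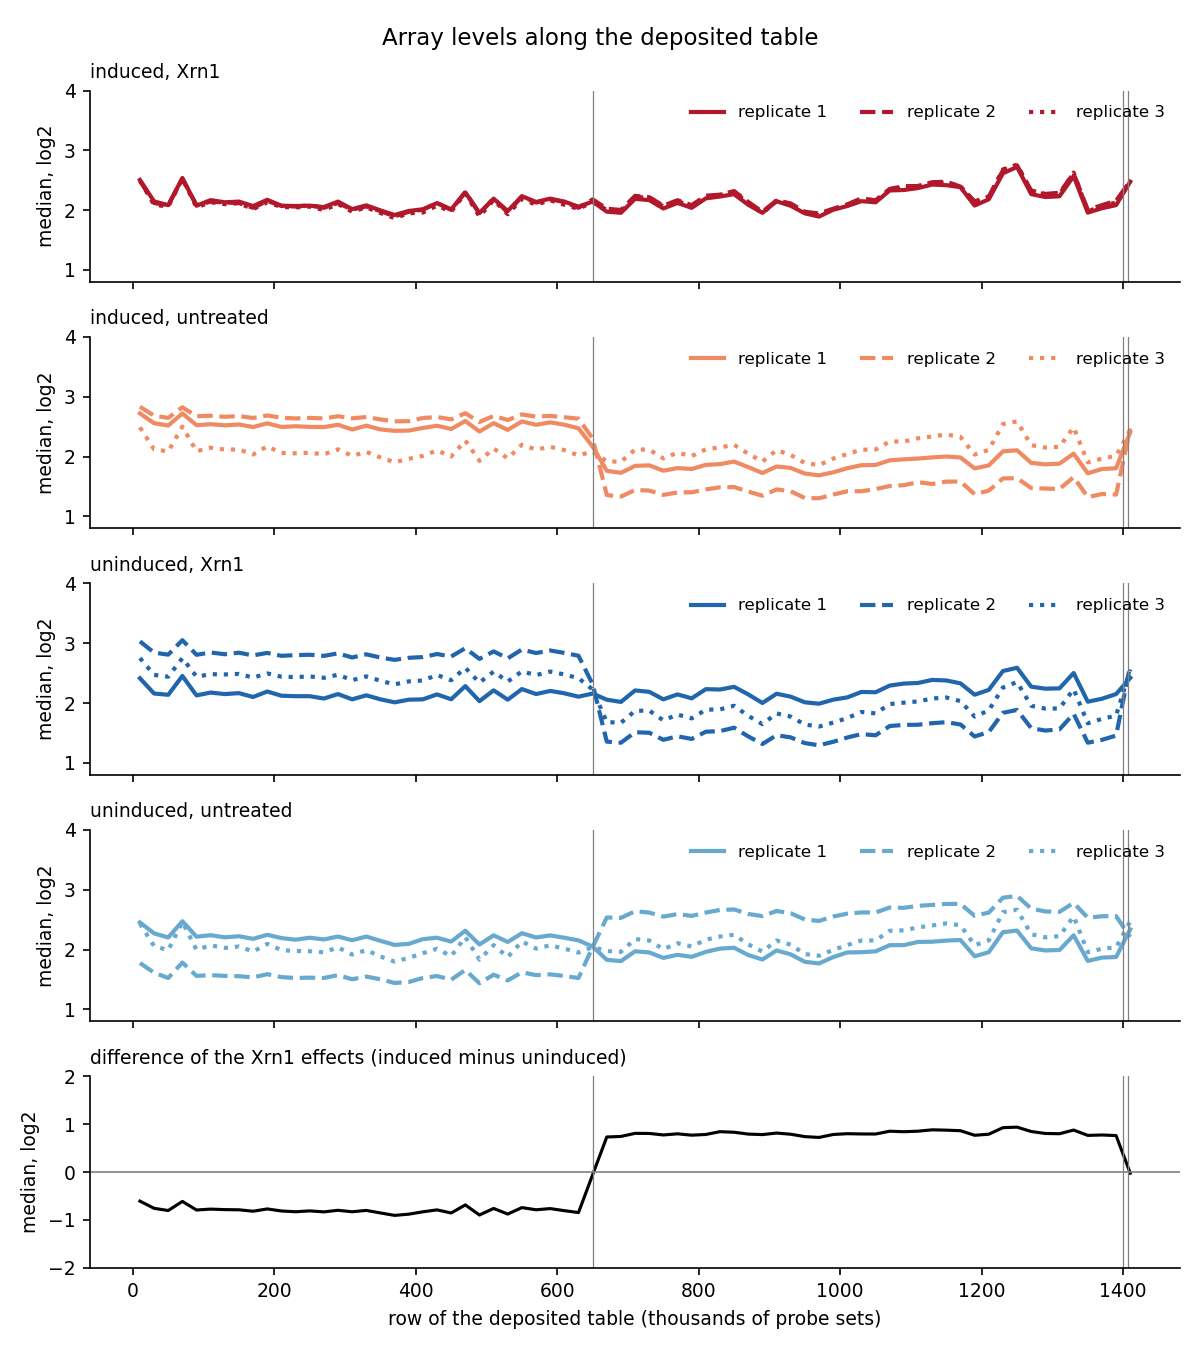
Median log2 level of consecutive blocks of 20000 probe sets (vertical axis) against the row of the deposited table (horizontal axis), 1 panel per group with 3 arrays each, and the difference of the Xrn1 effects in the lowest panel. Grey lines mark the changes of state; the difference stood near -0.79 over the first side and near 0.81 over the second.

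The difference of the Xrn1 effects followed this step. Over single probe sets its median was -0.79 on the first side (657353 probe sets) and 0.81 on the second (754046 probe sets). It was -0.86 over the last 200 probe sets before the change and 0.63 over the first 200 after it. Genes of chromosome 8 were split by it: 287 genes on the first side had a median difference of -0.39, and 267 genes on the second side had one of 1.08. A further 264 genes had at least 3 kept probe sets on each side. Within these genes the first-side probe sets gave a lower difference than the second-side ones in 254, with a median gap of -1.17. The side accounted for 78.5% of the variance of the difference over the 16355 genes that lie on 1 side.

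As deposited, 3479 genes passed with a positive difference, 20.6% of those tested, and 208 with a negative one, 1.23% (limma, Benjamini-Hochberg adjusted p under 0.05). Of the 3479, 3413 lay on the second side, 2 on the first and the remaining ones had probe sets on both. All 208 negative ones lay on the first side. The median difference of 7077 first-side genes was -0.39, and that of 9278 second-side genes was 1.12. Over all genes it was 0.70. The 3 Xrn1-minus-untreated differences of induced cells, taken between arrays of the same sample number, lay entirely above or below those of uninduced cells for 39.6% of genes. Leaving out 1 array moved the higher calls between 46 (without induced Xrn1 replicate 3) and 7736 (without induced untreated replicate 3), and the lower calls between 4 and 664 with the same arrays left out.

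After the median gene of every array was set to 0, 520 genes were higher, 3.08% of those tested, and 1336 were lower, 7.91%. The median of all genes was then 0.23, so the balance of the calls turned from mostly positive to mostly negative. The median difference was -0.86 on the first side and 0.65 on the second. Every one of the 520 higher genes with probe sets on 1 side only, 505 in number, lay on the second side, and 1334 of the 1336 lower ones lay on the first. Cyclic loess between arrays gave 165 higher genes, 0.977%, and 258 lower ones, 1.53%, with the same division: medians of -0.82 on the first side and 0.63 on the second. Thus 520 genes passed as higher and 208 as lower on both the deposited and the centred values, none of the 520 lying on the first side alone and all of the 208 lying there. The groups of differences were apart for 35.8% of genes after centring. Leaving out 1 array moved the centred counts between 1 higher and 2 lower genes (without induced untreated replicate 1) and 2197 higher and 3316 lower ones (without induced untreated replicate 3).

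**Figure D2:**
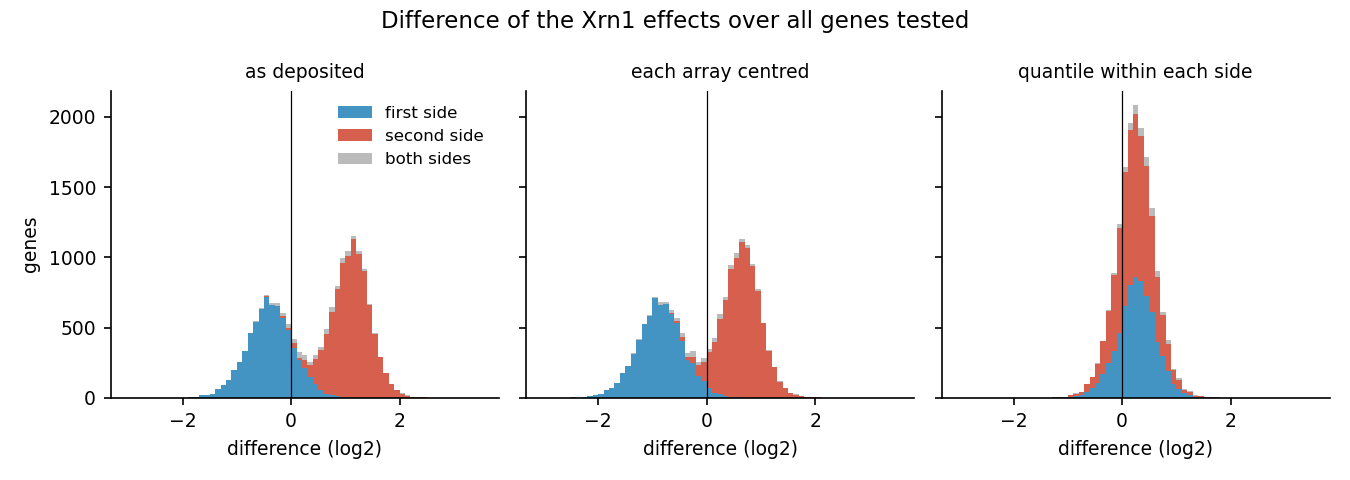
Number of genes (vertical axis) by the difference of the Xrn1 effects on the log2 scale (horizontal axis), stacked by the side of the table that holds the gene's probe sets. Medians of -0.39 and 1.12 as deposited and of -0.86 and 0.65 after centring form separate humps, which merge near 0.25 when the probe sets are quantile-normalized within each side.

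Scaling each side of the table by itself, an alternative chosen after the step had been seen, left few calls. The probe sets were quantile-normalized within each side (side-wise values below). The median difference was then 0.27 on the first side, 0.23 on the second and 0.25 over all genes. The median of the SDs moderated by limma was 0.25, while the fit as deposited gave every gene a common SD of 0.42. On these values 17 genes were higher, 0.101% of those tested, and 1 was lower, 0.00592%, while 2477 genes had an unadjusted limma p under 0.05. Leaving out 1 array gave between 7 (without induced Xrn1 replicate 3) and 205 (without induced untreated replicate 2) higher genes. The side then held 0.187% of the variance, and the differences of induced and uninduced samples were apart for 18.8% of genes. The other scalings within sides can only be fitted to the 16355 genes that lie on 1 side, and leave out the 528 on both sides, with 6 of the 17 higher genes (ND2, RPL41, RPS13, RPS27, RPS29 and TECR). With each array centred within each side, no gene passed in limma (0 higher and 0 lower of 16355, 1999 with an unadjusted p under 0.05). Cyclic loess within each side passed 1 of these genes, ND4 (0.00611%), with 1707 genes at an unadjusted p under 0.05. In a fit of only the 6 arrays without a step, values as deposited, no gene passed in limma, 2365 had an unadjusted p under 0.05 and the median difference was 0.23 on the first side and 0.43 on the second. That fit has 2 residual degrees of freedom, and 3 of its groups hold 1 array, assumed to vary like the others.

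**Figure D3:**
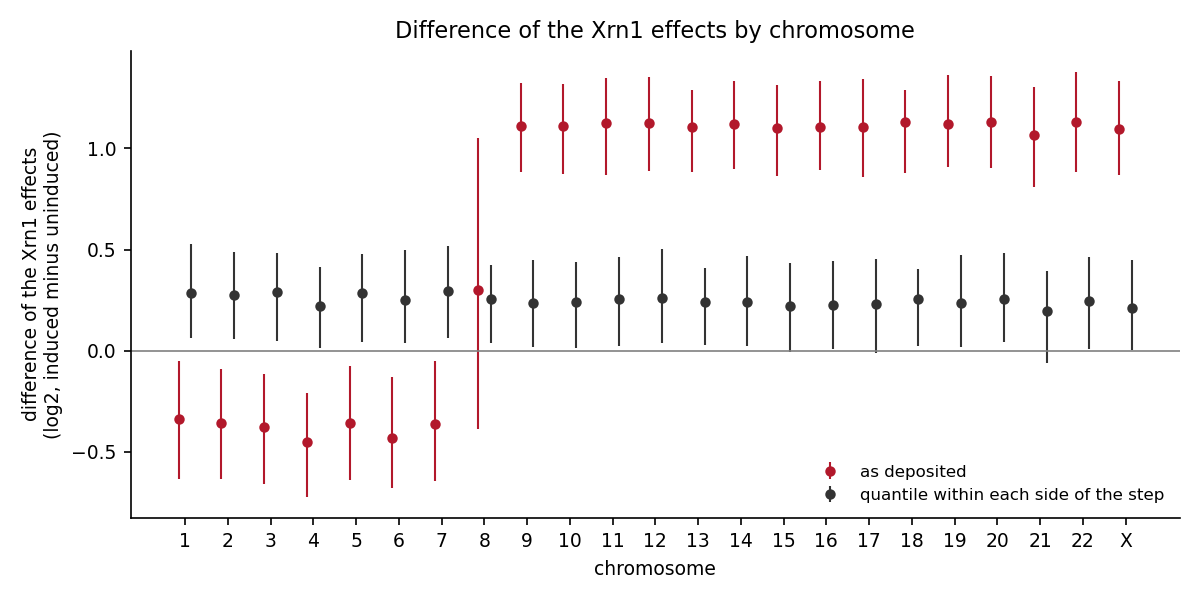
Median difference of the Xrn1 effects with its quartiles (vertical axis, log2) for the genes of each chromosome (horizontal axis), as deposited and with side-wise values. As deposited, chromosomes 1 to 7 lie between -0.45 and -0.34 and chromosomes 9 to X between 1.07 and 1.13, with chromosome 8 at 0.30; side-wise medians lie between 0.20 and 0.29 on all of them.

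All 3479 genes called higher as deposited kept a positive side-wise difference, and all 208 called lower kept a negative one. These genes were chosen for their differences on the same arrays, so the shared sign is no separate evidence. A positive side-wise difference was held by 79.0% of first-side genes, 76.0% of second-side genes and 88.4% of genes on both sides. The side-wise size was the smaller one for 3474 of the 3479 and for all 208. By a rule that ranks genes passing on the deposited and the centred values, leaving out provisional names and pseudogenes, the 12 largest positive differences were those of IFITM3, ND4, TMEM258, MRPS12, RPS13, RPL41, TMEM179B, RTL8A, SNRPD2, HSPB8, NDUFA3 and EMP3. Each had all or part of its probe sets on the second side, and 9 of these 12 also passed on side-wise values. The exceptions were HSPB8, a small heat shock protein, NDUFA3, a subunit of respiratory complex I, and EMP3, a membrane protein. Their side-wise differences were 1.27, 1.61 and 1.49 (limma adjusted p = 0.081, 0.055 and 0.055). The 12 largest negative differences were those of CD302, OR2F2, CYP3A4, CD200R1L, VHLL, PXT1, ADAMDEC1, ERMN, IL18R1, SPATA12, TMPRSS11B and DNAJB8. All 12 lay on the first side and had mean levels between 2.13 and 3.18, and 1 of the 12, CD302, passed on side-wise values.

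The 18 genes that passed on side-wise values are described next, and that set was chosen after its values were seen. Of them 17 had also passed as deposited and 16 after centring. They encode subunits of respiratory complexes, ribosomes and the spliceosome for the most part. In 12 of the 18, the group mean was higher with Xrn1 in induced cells and lower with Xrn1 in uninduced cells. In 5 the mean was lower with Xrn1 in both, and less so in induced cells. When the 6 stepped arrays were left out, the deposited differences of the 17 positive genes were 1.26 to 2.83, all of the same sign, with limma adjusted p-values of 0.228 or more.

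Mitochondrially encoded RNAs, which are transcribed in the organelle and carry no methylguanosine cap, gave 3 of the 17. ND4, a subunit of complex I, had deposited levels of 8.03, 7.51 and 8.12 in induced Xrn1 samples and 9.24, 9.79 and 9.07 in induced untreated samples. In uninduced cells it had 5.96, 6.13 and 6.49 with Xrn1 and 10.23, 10.93 and 9.87 without. The 4 groups did not overlap, and the lowest levels were those of the uninduced Xrn1 samples. The deposited difference was 2.67 (95% confidence interval 1.73 to 3.62, limma adjusted p = 0.000265, and 0.013 after centring). Side-wise, Xrn1 changed ND4 by -1.43 in induced and by -3.96 in uninduced cells, a difference of 2.53 (1.82 to 3.24, adjusted p = 0.00203), with 5 of 5 probe sets positive.

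ND2, also of complex I, had side-wise levels of 8.22, 7.52 and 8.22 in induced Xrn1 samples against 9.26, 9.50 and 9.52 in induced untreated ones. In uninduced cells these were 6.42, 7.00 and 6.57 with Xrn1 and 10.48, 10.50 and 9.81 without. Its difference was 2.16 (1.48 to 2.83, limma adjusted p = 0.00468). ND1, of the same complex, followed the same order of groups, with a difference of 1.73 (1.12 to 2.33, adjusted p = 0.0135) and Xrn1 effects of -1.59 in induced and -3.31 in uninduced cells. ND4 and ND2 passed in each of the 12 fits that left out 1 array, and ND1 in 7 of them. ND4 and ND1 differed by 1.52 and 0.63 after centring within sides (limma adjusted p = 0.342 and 0.643) and by 1.88 and 1.07 after loess within sides (0.0332 and 0.246). On that last scale the Xrn1 effects of ND4 and ND1 were 0.28 and 0.44 in induced cells and -1.60 and -0.63 in uninduced cells.

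The other 7 measured mitochondrial RNAs did not pass on side-wise values. ND5 had a difference of 1.76 (limma adjusted p = 0.055), COX3 1.47 (0.082), COX2 1.23 (0.094), ATP6 0.97 (0.221), CYTB 0.94 (0.186) and COX1 0.90 (0.245). ND6, the 1 complex I gene encoded on the opposite strand of the mitochondrial genome, had a value of -0.66 (adjusted p = 0.483), with 1 of 5 probe sets positive. The median of the 10 was 1.35, against 0.25 over all genes. It was also positive as deposited (1.47), after centring (1.00) and after cyclic loess (0.76). Of the 10, 6 lay on the second side, 4 on both sides and none on the first alone. Second-side genes as a whole had medians of 1.12, 0.65 and 0.63 on these scales. For the 6 on the second side alone, the median was 1.60 on side-wise values, 0.57 after centring within sides and 0.98 after loess within sides.

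Cytosolic ribosomal proteins gave 4 of the 17. RPL41, the shortest protein of the large subunit, had deposited levels of 7.68, 7.48 and 8.19 in induced Xrn1 samples and 5.95, 6.94 and 6.23 in induced untreated samples. In uninduced cells it had 5.75, 6.15 and 6.21 with Xrn1 and 7.46, 6.85 and 7.02 without. Its level was thus higher with Xrn1 in every induced pair of arrays and lower with Xrn1 in every uninduced pair. The deposited difference was 2.48 (1.53 to 3.43, limma adjusted p = 0.000648), and the side-wise one was 2.30 (1.64 to 2.96, adjusted p = 0.00203), with 15 of 15 probe sets positive.

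RPS13, of the small subunit, had side-wise levels of 6.44, 5.57 and 6.30 in induced Xrn1 samples and 4.94, 6.60 and 5.39 in induced untreated ones, which overlap. In uninduced cells the levels were 3.99, 4.16 and 3.81 with Xrn1 and 5.86, 5.71 and 5.80 without, which lie apart. Its side-wise difference of 2.26 (1.39 to 3.14, limma adjusted p = 0.0296) passed in 3 of 12 fits that left out 1 array. RPS27 had 6.26, 6.26 and 6.40 in induced Xrn1 samples against 4.64, 5.52 and 5.13 in induced untreated ones. Its uninduced levels were 5.17, 5.00 and 5.00 with Xrn1 and 5.85, 5.63 and 5.87 without, and its difference of 1.94 (1.35 to 2.52, adjusted p = 0.00371) passed in all 12. RPS29 differed by 1.53 (0.92 to 2.15, adjusted p = 0.0429). Its Xrn1 effect was 1.45 in induced cells and -0.08 in uninduced cells, and it passed in 3 of 12.

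Xrn1 enters an RNA at its 5′ end, so the annotated starts of 7 nuclear genes of this set are shown, each as 15 bases before the RefSeq gene start in lower case and the first 15 transcribed bases in capitals (GRCh38.p14, 5′ to 3′ on the gene's strand).
RPL41: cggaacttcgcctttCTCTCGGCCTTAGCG
RPS13: ttccactctcgctctCCTTTCGTTGCCTGA
RPS27: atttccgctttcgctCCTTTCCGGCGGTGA
RPS29: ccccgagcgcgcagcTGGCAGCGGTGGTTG
SNRPD2: tagatacgtcagtaaCGCGTCCCAGAGGGA
TMEM258: tcctgccgacgtgttCTTCCGGTGGCGGAG
IFITM3: aagggagggctcactGAGAACCATCCCAGT
They lie at chr12:56116618-56116647 (plus strand), chr11:17077653-17077682 (minus), chr1:153990747-153990776 (plus), chr14:49598696-49598725 (minus), chr19:45692302-45692331 (minus), chr11:61792585-61792614 (minus) and chr11:320846-320875 (minus), in that order. Messenger RNAs of ribosomal proteins typically begin with a C followed by a run of pyrimidines, the 5′ terminal oligopyrimidine tract. RPL41, RPS13, RPS27, SNRPD2 and TMEM258 start with C, and RPS29 and IFITM3 do not. Windows not shown, those of MRPS12, TMEM179B, RTL8A, CD302, COX8A, SNRPB, MRPS18B and TECR, do not start with C either. The share of C starts over all genes was not counted. Of the 15 genes of the set with a window, 0 held at least 13 pyrimidines, against 2.25% of all tested genes with one. At so low a share, 0 of 15 cannot tell the set from all genes. The count also ignores the order of the bases, so it does not measure an unbroken run after the first C. RPL41, RPS13, RPS27 and RPS29 hold 10, 11, 9 and 6 pyrimidines among the 15 capital bases, and SNRPD2, TMEM258 and IFITM3 hold 6, 7 and 7. The median over 13268 tested genes with a start window was 7. The RefSeq start need not be the one used in U2OS cells.

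IFITM3, an interferon-induced membrane protein that restricts virus entry, had the largest deposited difference of all genes ranked. Its levels were 4.25, 3.73 and 4.36 in induced Xrn1 samples and 2.66, 3.15 and 3.24 in induced untreated samples. In uninduced cells they were 2.64, 1.94 and 2.53 with Xrn1 and 4.56, 4.56 and 4.24 without. As deposited, the induced groups and the uninduced groups were both apart, in opposite order. On side-wise values the induced groups overlapped, since Xrn1 replicate 2 stood at 3.54 and untreated replicate 2 at 3.62, and the uninduced groups were apart. The deposited difference was 3.18 (2.23 to 4.13, limma adjusted p = 7.73e-07, and 0.000393 after centring). The side-wise difference was 2.27 (1.66 to 2.88, adjusted p = 0.00203), with all 3 kept probe sets of 5 positive, and it passed in each of 12 fits that left out 1 array.

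Spliceosome subunits gave 2 genes. SNRPD2, an Sm core protein, had side-wise levels of 5.43, 5.32 and 5.16 in induced Xrn1 samples and 3.89, 3.58 and 3.80 in induced untreated ones. In uninduced cells the levels overlapped, at 4.23, 4.31 and 4.29 with Xrn1 and 4.14, 4.47 and 4.39 without. Its difference of 1.60 (1.09 to 2.11, limma adjusted p = 0.00546) passed in all 12 omissions. SNRPB, another Sm core protein, differed by 1.39 (0.82 to 1.96, adjusted p = 0.0497) and passed in 2 of 12.

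Nuclear genes of the mitochondrion gave 3. MRPS12, of the small mitochondrial ribosomal subunit, had side-wise levels of 4.03, 4.06 and 3.97 in induced Xrn1 samples and 3.06, 3.23 and 3.51 in induced untreated ones, and in uninduced cells 2.92, 2.96 and 3.50 with Xrn1 and 3.80, 4.14 and 3.83 without. Its difference was 1.55 (0.98 to 2.12, limma adjusted p = 0.0233). COX8A, a subunit of cytochrome c oxidase, differed by 1.44 (0.89 to 1.98, adjusted p = 0.0263). MRPS18B, of the small mitochondrial ribosomal subunit and the 1 positive gene of the set on the first side alone, differed by 1.48 (0.89 to 2.06, adjusted p = 0.0374). It had not passed as deposited (1.05, adjusted p = 0.0833). These passed in 6, 3 and 3 of 12 omissions.

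The remaining positive genes were TMEM258, TMEM179B, RTL8A and TECR. TMEM258, a subunit of the oligosaccharyltransferase that attaches sugars to proteins in the endoplasmic reticulum, had side-wise levels of 5.26, 5.26 and 5.93 in induced Xrn1 samples against 3.93, 4.44 and 4.46 in induced untreated ones. Its uninduced levels were 4.33, 4.34 and 4.11 with Xrn1 and 4.95, 4.72 and 5.02 without, for a difference of 1.85 (1.24 to 2.46, limma adjusted p = 0.00742). TMEM179B, a membrane protein, differed by 1.66 (adjusted p = 0.00855). RTL8A, a gene derived from a retrotransposon, differed by 1.65 (adjusted p = 0.0479), and TECR, a reductase of long-chain fatty acid synthesis, by 1.55 (adjusted p = 0.0233). These 4 passed in 12, 11, 3 and 5 of 12 omissions.

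CD302, a C-type lectin receptor, was the 1 gene that passed with a negative difference on side-wise values. Its deposited levels were 1.77, 2.53 and 2.17 in induced Xrn1 samples and 2.69, 2.85 and 2.66 in induced untreated samples, and 3.49, 4.01 and 3.36 in uninduced Xrn1 samples against 1.87, 1.54 and 2.01 in uninduced untreated ones. The uninduced Xrn1 samples alone stood high. The deposited difference was -2.39 (-3.33 to -1.44, limma adjusted p = 0.00116) and the side-wise one -1.60 (SE 0.29, adjusted p = 0.0254), with none of its 3 probe sets positive. It passed in 4 of 12 omissions. CYP3A4, a drug-metabolising enzyme of liver, did not pass, at -1.44 side-wise (-2.07 to -0.82, adjusted p = 0.0552). OR2F2, an olfactory receptor gene, had -1.53 (-2.51 to -0.55, adjusted p = 0.166), where induced untreated replicate 1 stood at 3.75 against 2.19 and 2.34 in the other replicates.

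**Figure D4:**
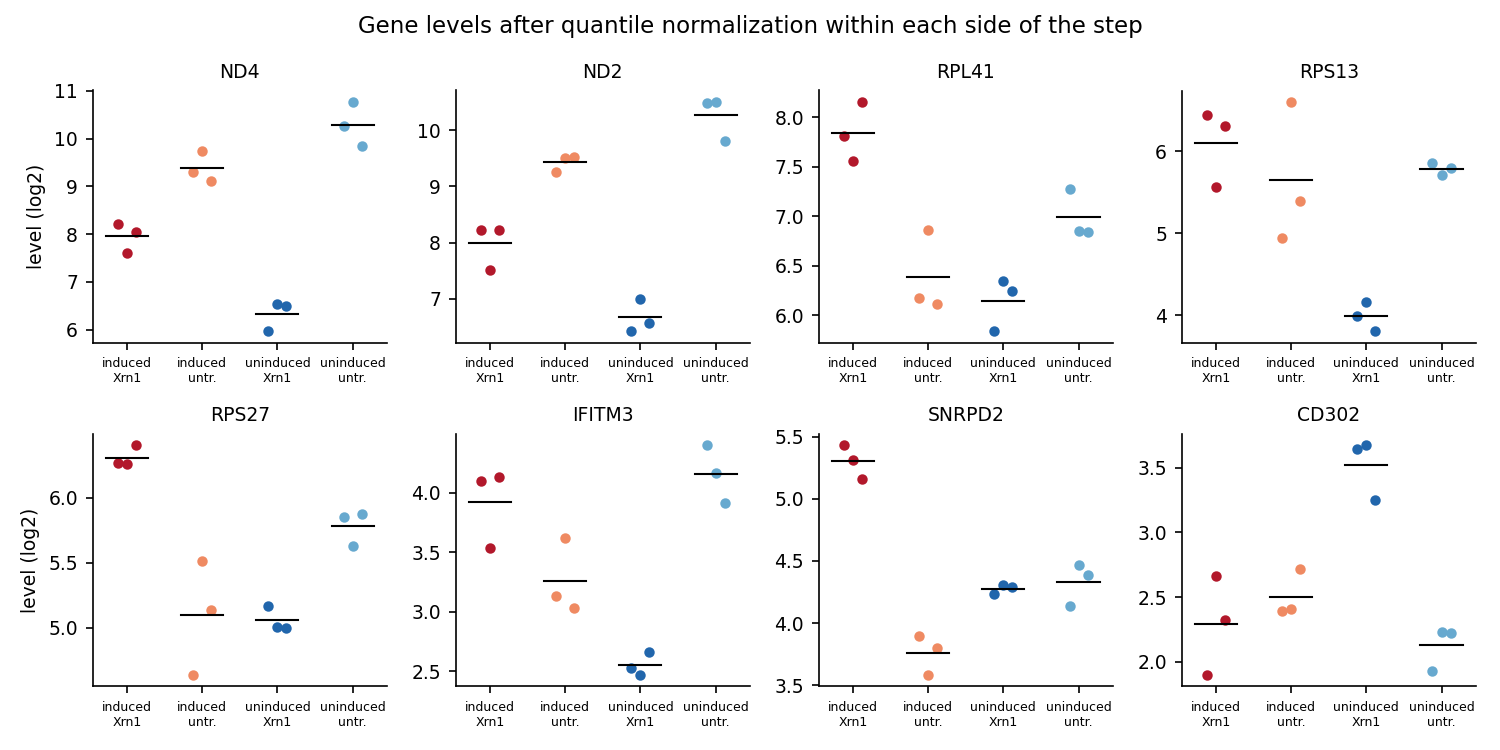
Side-wise log2 level (vertical axes, each with its own range) of 8 genes in the 4 groups (horizontal axis); points are single arrays and bars are means of 3. For ND4 and ND2 Xrn1 samples lie below untreated ones in both conditions, with a wider gap in uninduced cells; SNRPD2 is higher with Xrn1 in induced cells and overlaps in uninduced cells; CD302 is high in the uninduced Xrn1 samples.

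The genes of 31 lists were read against the same background. As deposited, list medians ran from -0.61 to 1.47, and in all 29 lists with members on both sides the second-side members had the higher median. Olfactory receptor genes, which stood lowest, had medians of -0.85 over 28 first-side members and 1.01 over 16 second-side members. Genes of the interferon and uncapped-RNA response had -1.03 over 6 and 1.14 over 22, and zinc finger genes -0.44 over 114 and 1.11 over 331. On side-wise values, 25 of 31 lists had no member that passed. The 6 others were cytosolic ribosomal proteins (4 of 69 measured), mitochondrially encoded RNAs (3 of 10), mitochondrial ribosomal proteins (2 of 76), spliceosome and hnRNP proteins (2 of 54), oxidative phosphorylation subunits (1 of 72) and the interferon and uncapped-RNA response (1 of 28, IFITM3). Over all genes 0.101% passed as higher, and 0.533% did in the brightest of 6 equal classes by mean level. No list had a member that passed as lower, against 1 lower gene among all 16883.

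Both Xrn1 effects are given side by side for the lists, as side-wise medians; they share no arrays. Mitochondrially encoded RNAs had -1.79 in induced and -3.15 in uninduced cells. Their medians were -0.04 and -0.78 after cyclic loess. After loess within sides the 6 members on 1 side had 0.36 and -0.60, so the sign in induced cells depended on the scaling. Importins and exportins, which carry cargo through the nuclear pore, had -1.61 and -2.10, and Xrn1 lowered 22 of 25 in induced cells and 25 of 25 in uninduced cells (limma; 25.4% and 37.3% of all genes fell). Proteasome subunits had -1.04 and -1.73, with 24 and 29 of 31 lowered. Mitotic genes had -1.38 and -1.79, with 42 and 49 of 53 lowered, and genes of the endoplasmic reticulum translocation and glycosylation list -1.42 and -1.79, with 36 and 40 of 41 lowered. For none of these 4 last lists did any member pass the test of the difference on side-wise values. Of all genes 0.101% passed there as higher. As deposited, 4 importins and exportins, 9 proteasome, 13 mitotic and 6 endoplasmic reticulum genes had passed as higher. The share was 20.6% over all genes and 36.8% over second-side genes.

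Cytosolic ribosomal proteins had medians of -0.31 in induced and -0.92 in uninduced cells. With Xrn1, 25 of 69 were lower and 13 higher in induced cells, and 48 were lower and 0 higher in uninduced cells (background of higher genes 24.0% and 16.1%). For the 27 members that lie on 1 side, the side-wise medians were -0.31 and -0.77, with a median difference of 0.56. After cyclic loess within sides the same 27 had 0.54 and 0.58, with a median difference of 0.00, so the direction of the effects depended on the scaling. Oxidative phosphorylation subunits had 0.13 in induced and -0.57 in uninduced cells, and mitochondrial ribosomal proteins -0.02 and -0.67. Their median differences of 0.66 and 0.47 stayed positive under all 6 scalings, down to 0.19 and 0.11 after loess within sides (65 and 74 members on 1 side). Other lists stayed positive under all 6 too, among them decapping and cytoplasmic decay, mitotic, DNA replication and vesicle coat genes. These had 0.11, 0.06, 0.02 and 0.04 after loess within sides. All genes had medians of 0.70 as deposited, 0.23 after centring and 0.15 after loess. Within sides, centring and loess both gave all genes -0.02. For spliceosome and hnRNP proteins the median difference was 0.34 side-wise, also over the 40 members on 1 side, and over these it was -0.12 after loess within sides.

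**Figure D5:**
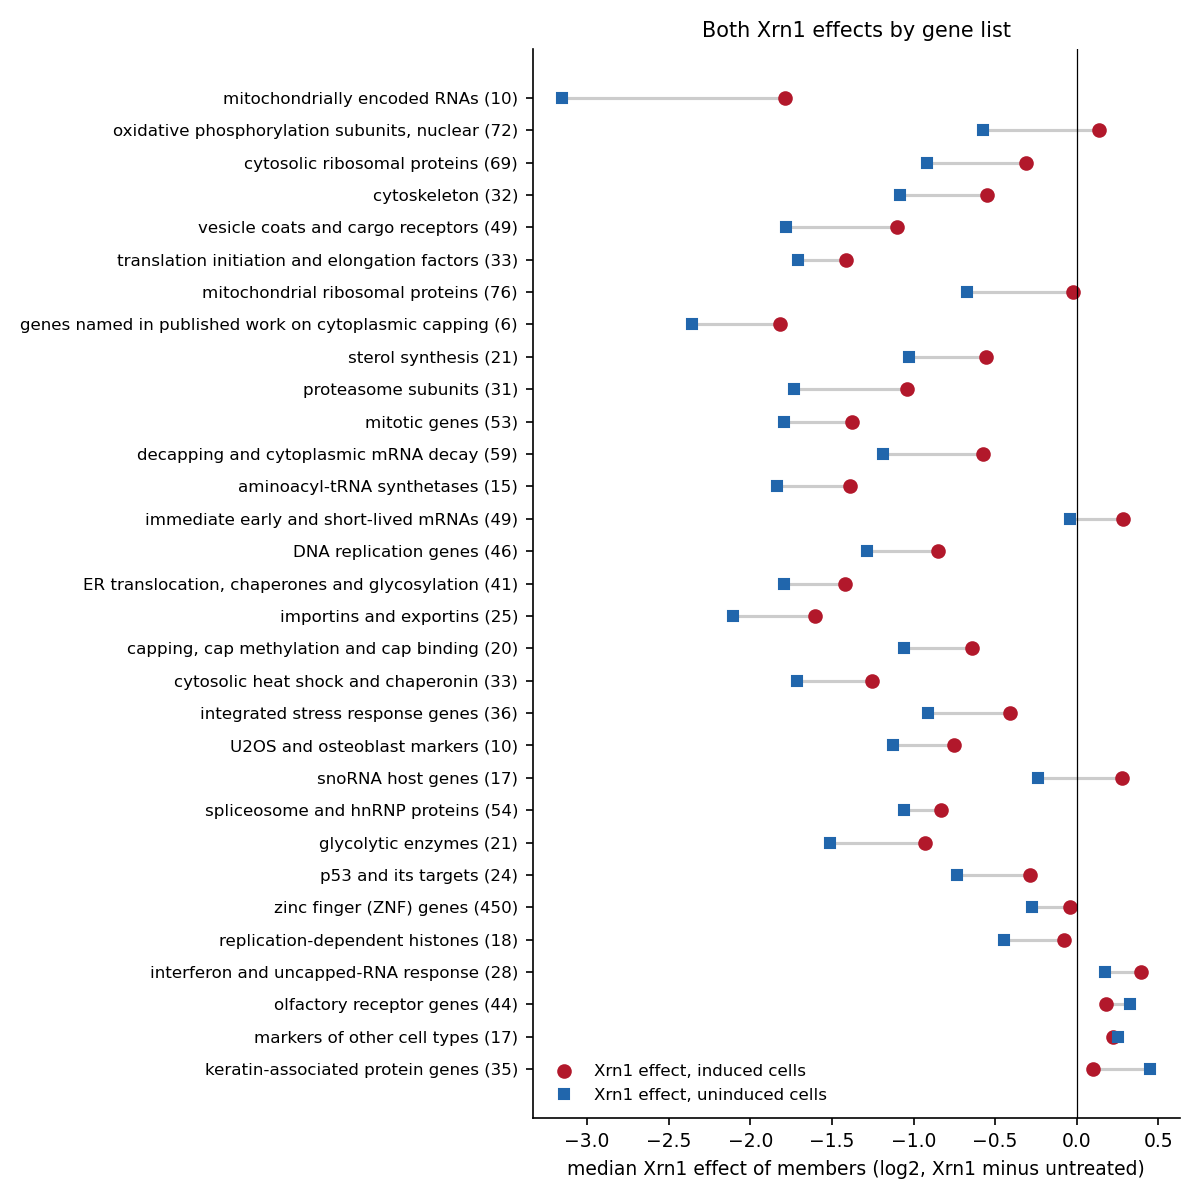
Median Xrn1 effect of the measured members of each list (horizontal axis, log2, Xrn1 minus untreated, side-wise values) in induced cells (circles) and uninduced cells (squares), with the number of members measured in brackets. In the uppermost row mitochondrially encoded RNAs stand at -1.79 and -3.15; in the lowest 3 rows, olfactory receptors, markers of other cell types and keratin-associated protein genes, the circle lies at or left of the square.

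Genes that earlier publications tied to cytoplasmic capping, a list recalled for this work and in part chosen by its authors on these samples, were measured for 6 of 8 members and are no independent evidence of a direction. None passed on side-wise values, where 0.101% of all genes passed as higher. ZNF207, a zinc finger protein of the spindle, had a difference of 1.21 (0.60 to 1.82, limma adjusted p = 0.0896). Its side-wise levels were 4.20, 3.88 and 4.35 in induced Xrn1 samples and 5.04, 5.92 and 5.43 in induced untreated ones, and in uninduced cells 3.23, 3.36 and 3.43 with Xrn1 and 5.99, 5.85 and 5.78 without. Xrn1 samples were thus lower in both conditions, with the wider gap in uninduced cells. ILF2 had a difference of 0.58 (adjusted p = 0.397), VDAC3 0.48 (0.599), STRN4 0.45 (0.429), RAB1A 0.11 (0.899) and ITGB1 0.07 (0.924). As deposited, ZNF207 and STRN4 had passed as higher (1.87 and 1.35), and RAB1A, on the first side, stood at -0.28.

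RNGTT, the gene of the capping enzyme, lies on the first side and did not pass. Its side-wise levels were 2.79, 2.42 and 2.60 in induced Xrn1 samples and 3.06, 4.23 and 4.05 in induced untreated ones. In uninduced cells they were 2.47, 2.71 and 2.59 with Xrn1 and 4.06, 3.58 and 4.16 without. The Xrn1 effects of -1.18 and -1.35 differed by 0.17, with an interval from -0.55 to 0.89 (limma adjusted p = 0.831), and by -0.52 as deposited. Whether its 24 probe sets match the K294A transgene is not given in the sources used here. XRN1, the endogenous exonuclease gene, differed by 0.31 (-0.33 to 0.95), and RNMT, which methylates the cap, by 0.19 (-0.38 to 0.77). RPLP0, a ribosomal stalk protein often used as a reference, differed by 0.59 (-0.06 to 1.24).

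Among 20 genes of capping, cap methylation and cap binding the median difference was 0.40 side-wise, and none passed. Over all genes only 0.101% passed as higher. EIF4EBP1, a repressor of cap-dependent translation, came closest, at 1.41 (0.80 to 2.02, limma adjusted p = 0.0552), with Xrn1 effects of 1.43 in induced and 0.02 in uninduced cells. Its relative EIF4EBP2 had 1.22 (adjusted p = 0.106). The cap-binding proteins EIF4E, NCBP1 and NCBP2 had 0.38, 0.26 and -0.06. The median of 59 decapping and cytoplasmic decay genes was 0.44, and none passed, against that same share. As deposited 23 of the 59 had passed as higher, against 20.6% of all genes. Of the 59, 35 lay on the second side alone, where 36.8% of genes passed as higher.

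The size of the side-wise difference varied with the level of the gene. When the genes were divided into 6 equal classes by mean level, the median difference was 0.08, 0.17, 0.23, 0.28, 0.36 and 0.42 from the dimmest to the brightest class. The brightest class held 15 of the 17 genes that passed as higher, and the dimmest held CD302. Array signal moved with this: 201, 144 and 298 genes stood above 6 on the induced Xrn1 arrays and 327, 823 and 596 on the induced untreated ones, against 110, 151 and 145 on the uninduced Xrn1 arrays and 1114, 760 and 914 on the uninduced untreated ones. The part of this spread of signal in the differences was not tested beyond the loess fits, which scale by level. With loess within sides the 6 mitochondrially encoded RNAs on 1 side had a median of 0.98, and all genes fitted had one of -0.02. By type of gene, the side-wise median was 0.26 for 15929 protein-coding genes and 0.13 for 331 long noncoding RNAs.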

How the data were processed

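Cytoplasmic RNA of 12 samples was measured on exon arrays. The deposited table gives log2 levels of probe sets, which the authors obtained by RMA (oligo), per the submitters' processing notes. Versions, annotation and build are not given there. Of 1411399 probe sets, 357604 carried 1 gene symbol in the platform annotation, 15322 several and 1038473 none. A probe set was kept where its mean level exceeded 2.04, which is the median of such means, and a gene's value was the mean of its kept probe sets. Genes with at least 3 were tested, 16883 of 19488 symbols, and 2605 fell outside. Symbols were updated through RefSeq.

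The difference was fitted with limma 3.58.1 in R 4.3.3 over all 12 arrays and 4 group means, adjusted by Benjamini-Hochberg over all genes, with a threshold of 0.05. As deposited, limma gave an infinite prior, so each gene received an SD of 0.418 and a standard error of 0.48; the other scales moderate each gene's own SD. Confidence intervals are for single genes. The fit was tested on simulated data with independent noise and no step in single arrays, so that test does not bear on the step. Genes and lists were chosen with earlier results of these data known. Named are the 12 largest differences each way that pass as deposited and after centring with sample differences apart (provisional, antisense and readthrough names and pseudogenes left out), 3 genes per list by smallest p after centring, and RNGTT, XRN1, RNMT and RPLP0; others are marked. Side-wise scalings and the fit without the stepped arrays were added after the data had been seen. Alternatives also changed the probe set summary, filter, scaling, prior, weights, blocks and arrays. Titles number the samples CM1 to CM6. Those of CM1X and CM2X both give biological replicate 2, and CM1X was treated as replicate 1.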

Additional observations from a re-analysis of the deposited data

Results flagged for a closer look

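The difference of the Xrn1 effects was itself the test between induced and uninduced cells, and each result here passed it in limma. As deposited, 3479 genes were higher and 208 lower, divided by the side of the table as described above. On side-wise values, where the step between sides is removed, 17 of these genes passed. The mitochondrially encoded RNAs ND4, ND2 and ND1 had differences of 2.53, 2.16 and 1.73. The ribosomal protein genes RPL41, RPS13, RPS27 and RPS29 had 2.30, 2.26, 1.94 and 1.53, and the mitochondrial proteins MRPS12 and COX8A had 1.55 and 1.44. SNRPD2 and SNRPB had 1.60 and 1.39. IFITM3 had 2.27, TMEM258 1.85, TMEM179B 1.66, RTL8A 1.65 and TECR 1.55. CD302 had -1.60. Their relation to capping, to RNA level and to the step on 6 arrays was not tested.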

How the results depend on the processing

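As deposited, the counts were 3479 higher and 208 lower. The median of probe sets gave 1415 and 50, no filter on dim probe sets 815 lower, and probe sets above the upper quartile 1158 and 7. Centring gave 520 and 1336, and cyclic loess 165 higher. Array weights gave 7920 and 702, and each gene's own spread 0 and 0 (limma without a prior; 6306 genes with an unadjusted p under 0.05). Values scaled within sides gave 17 and 1 (quantile), 0 and 0 (centred) and 1 and 0 (loess), the centred and loess fits without the 528 genes on both sides, and the fit without the stepped arrays 0 and 0 (2365 unadjusted). Leaving out 1 array, or both arrays of 1 sample number, gave between 1 and 7736 higher and between 0 and 664 lower as deposited. After centring, leaving out 1 array gave 1 to 2197 higher and 2 to 3316 lower; induced untreated replicate 1 gave the lowest and induced untreated replicate 3 the highest counts. On side-wise quantile values it gave 7 to 205 higher and 0 to 8 lower. The cause of these changes was not tested.

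The replicate block by sample number gave 137 higher and 8 lower as deposited, 24 higher and 155 lower after centring, and 12 and 0 on side-wise quantile values. A block by replicate number gave 2862 and 155. The titles pair an untreated and an Xrn1 array under each number. The deviations of the 2 arrays correlated between -0.71 and 0.13 across genes as deposited, where the step is present. On side-wise values they correlated between -0.44 and 0.09. These correlations cannot tell whether the arrays of a number came from 1 RNA sample. For 36 named genes, 1484 of 2099 recomputed values kept direction and side of the threshold, 600 no longer passed and 12 passed anew. Without the stepped arrays 3 changed sign: VHLL to 0.016, ERMN to 0.0034 and TMPRSS11B to 0.64. Levels between 2 and 3 lie near those of the median probe set, which limits the dim genes.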
